A study of Mus musculus with 64 samples.

Results

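Smarcd2, Smarcd1 and Smarcd3 are the 3 mouse genes that encode the BAF60 subunits of the SWI/SNF (BAF) chromatin remodelling complex, and their RNA was followed across 64 libraries of progenitor cells sorted from fetal liver. The members were taken by gene identifier, 3 of the 38924 genes listed for the deepest set of libraries. Fetuses were C57BL/6 and were homozygous (Smarcd2 -/-, KO), heterozygous (Smarcd2 +/-, HET) or wild type (WT) for a Smarcd2 allele whose construction the labels do not describe. LSK cells, which lack lineage antigens, carry Sca-1 and c-Kit and include blood stem cells, gave 9 KO, 9 HET and 5 WT libraries. Common myeloid progenitors (CMP) gave 4 KO, 7 HET and 3 WT libraries. Granulocyte-monocyte progenitors (GMP) gave 3 KO, 7 HET and 3 WT libraries. Megakaryocyte-erythroid progenitors (MEP) gave 4 KO, 7 HET and 3 WT libraries. All fetuses were labelled 13 to 14 days post coitum except for the fetus of CMP HET library 1, at 14.5 days. Since the labels do not tie each library to a fetus of its own, p-values here reflect variation among libraries, which may be technical.

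BAF complexes use the energy of ATP to move or evict nucleosomes, which opens regulatory DNA to transcription factors. Each complex holds 1 BAF60 protein, encoded by Smarcd1 (BAF60a), Smarcd2 (BAF60b) or Smarcd3 (BAF60c), and the choice of paralog differs between tissues. BAF60b is known for its need in granulocyte development in mice, fish and humans, BAF60c for its role in heart and muscle, and BAF60a is made in many tissues. The libraries therefore allow a question about dose, namely how much Smarcd2 RNA is left with 1 or 0 intact copies, and a question about the paralogs, namely whether Smarcd1 or Smarcd3 RNA is higher where Smarcd2 is missing.

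Smarcd2 (ENSMUSG00000078619) lies on the minus strand of GRCm38 at chr11:106263179-106272972. Smarcd1 (ENSMUSG00000023018) is on the plus strand at chr15:99702129-99713991 and Smarcd3 (ENSMUSG00000028949) on the minus strand at chr5:24590818-24624411. Their coding sequences, read from GRCm38 with GENCODE M21, are 1596 bases (Smarcd2), 1548 bases (Smarcd1) and 1452 bases (Smarcd3) long. Smarcd2 was identical to Smarcd1 at 70.7% of aligned coding bases and to Smarcd3 at 72.2%. The longest run that Smarcd2 shared with either paralog was 18 bases, and no run of 50 bases was shared by any pair. The stretch shown here holds the longest run that Smarcd2 shares with each of the other genes. It lies in 1 coding exon of each gene, at chr11:106264195-106264278 (minus strand), chr15:99712177-99712260 (plus strand) and chr5:24593017-24593100 (minus strand), and capitals mark bases that differ from Smarcd2.
Smarcd2: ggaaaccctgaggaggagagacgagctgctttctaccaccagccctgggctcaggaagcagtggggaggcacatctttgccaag
Smarcd1: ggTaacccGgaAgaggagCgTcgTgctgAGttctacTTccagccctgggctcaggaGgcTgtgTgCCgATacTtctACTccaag
Smarcd3: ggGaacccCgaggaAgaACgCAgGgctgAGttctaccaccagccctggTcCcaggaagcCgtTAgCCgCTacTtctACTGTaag
Over these 84 bases Smarcd1 differed from Smarcd2 at 21 positions and Smarcd3 at 25.

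Sequencing depth, as reads assigned to genes, was 4327582 to 24069833 for LSK libraries, 1577073 to 8092644 for CMP, 1006090 to 6300070 for GMP and 1488328 to 5646315 for MEP. Sums of LSK and MEP markers followed the sort labels, while those of CMP and GMP markers overlapped between LSK and CMP. Summed over 5 LSK markers, levels were 1097 to 1804 CPM (counts scaled to a common library total) in LSK and 28.6 to 377 in the other populations. Ly6a (Sca-1) was not listed for CMP and MEP, nor Mecom for MEP. The sums there thus hold 4 markers in CMP and 3 in MEP, which lowers them. Gata1, Klf1 and Epor summed to 190.9 to 2349 CPM in MEP and to 4.74 to 142 CPM elsewhere. The 5 CMP and GMP markers summed to 1620 to 2481 CPM in LSK, 1709 to 5235 in CMP and 672 to 40788 in GMP. In MEP, erythroblast markers summed to 565 to 2545 CPM in KO, 1049 to 15862 in HET and 1982 to 15588 in WT. B cell markers there summed to 29.9 to 90.8 CPM in KO, 73.1 to 571 in HET and 104.7 to 590 in WT. Hepatocyte markers there reached 584 CPM in KO, 3897 in HET and 4064 in WT. The part of other cells in the MEP levels was not tested. The libraries numbered 8 of HET stood apart in CMP and GMP. Mpo, the myeloid peroxidase, was at 630 CPM in CMP HET 8, against 2646 to 4462 in the other CMP libraries, and at 149.9 CPM in GMP HET 8, against 9186 to 27212. GMP HET 8 had reads in 27233 genes, against 14184 to 19509 in the other GMP libraries. The main levels and single-gene tests that rest on these libraries are given with and without them, but not every fit. In GMP, synthetic spike-in RNAs took 2.52% to 3.06% of the reads of the 3 KO libraries, against 0.00912% to 0.394% in HET and 0.149% to 0.233% in WT.

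Smarcd2 RNA was nearly gone in every library labelled KO, with 0 to 15 reads per library. In LSK the KO libraries ran from 0.845 to 1.94 CPM with a median of 1.13, HET from 21.9 to 67.4 with a median of 31.9, and the WT libraries stood at 56.4, 70.4, 53.1, 50.4 and 49.4 CPM. In CMP the KO libraries had 0.606, 1.34, 0.753 and 1.47 CPM, HET libraries 19.09 to 66.1 with a median of 58.6, and WT libraries 91.2, 121.9 and 131.9 CPM. No KO library came near a HET or WT library in either population.

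GMP KO libraries had 0, 1.06 and 0.752 CPM, HET libraries 8.77 to 79.4 with a median of 47.95, and WT libraries 84.8, 90.6 and 88.1 CPM. The GMP KO library at 0 had no Smarcd2 read among 5304695, which allows up to 0.566 CPM on its unscaled total. In MEP the KO libraries had 1.47, 1.79, 1.13 and 0.355 CPM, HET libraries 48.3 to 77.4 with a median of 67.1, and WT libraries 84.0, 130.3 and 115 CPM. Each KO library lay below all HET and all WT libraries of its population, in all 4 populations.

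**Figure D1:**
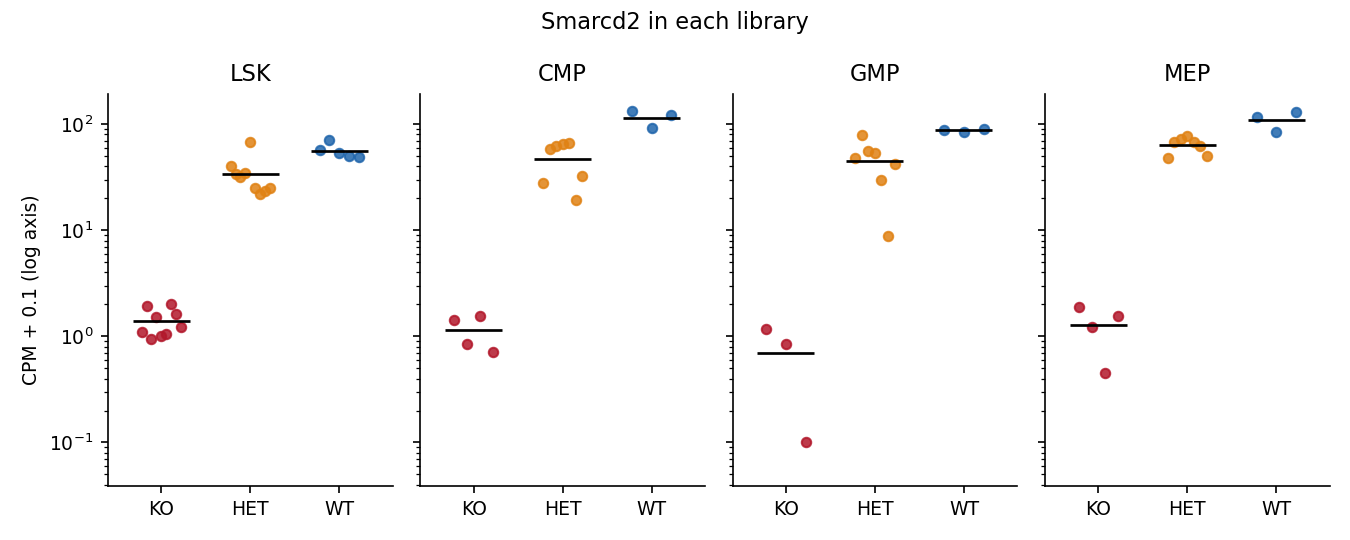
Smarcd2 level of each library on a log axis, as CPM plus 0.1, in KO, HET and WT of the 4 populations; each point is a library and each line a group mean. KO libraries sit at or below 1.94 CPM everywhere, and in CMP, GMP and MEP every HET library lies below every WT library.

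Mean Smarcd2 levels of KO relative to WT were 2.3% for LSK, 0.906% for CMP, 0.688% for GMP and 1.08% for MEP. The fold changes of KO against HET were of the same order, with log2 values of -4.74 ± 0.23 in LSK (SE; edgeR adjusted p 2.78e-13), -5.40 ± 0.43 in CMP (1.09e-06), -6.29 ± 0.82 in GMP (0.00238) and -5.64 ± 0.37 in MEP (1.53e-06). Smarcd2 thus passed in 4 of 4 populations in KO against HET, where the share of all genes tested that passed was 11.1% for LSK, 2.19% for CMP, 0.261% for GMP and 0.0171% for MEP. Against WT, where 18.8%, 1.84%, 0.204% and 0.00856% of genes passed in the same order of populations, it also passed in 4 of 4, and in MEP it was the 1 gene called among 11686. Every one of these 8 calls was kept with each library left out in turn. The KO effect did not pass a test of difference between populations, in comparisons where 0.0169%, 0% and 0.414% of genes passed. The log2 differences were -0.55 for GMP minus CMP (95% interval -2.18 to 1.07), 0.23 for MEP minus CMP (-1.21 to 1.67) and -0.78 for GMP minus MEP (-2.41 to 0.84). In bulk RNA, fewer cells of a type and less RNA per cell cannot be told apart.

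HET cells had less Smarcd2 RNA than WT cells. The coefficient of variation among HET libraries was 41.8% for LSK, 42.4% for CMP, 48.8% for GMP and 17.3% for MEP. Without the libraries numbered 8 it was 33.2% for CMP and 32.3% for GMP. As a share of the WT mean, HET stood at 60.2% in LSK (33.7 ± 14.1 CPM, SD, n = 9, against 55.9 ± 8.54, n = 5), 41.0% in CMP (47.1 ± 19.98, n = 7, against 115 ± 21.23, n = 3), 51.5% in GMP (45.2 ± 22.1, n = 7, against 87.8 ± 2.90, n = 3) and 57.9% in MEP (63.7 ± 11.01, n = 7, against 109.9 ± 23.6, n = 3). Without the libraries numbered 8 the share was 45.0% in CMP and 58.4% in GMP. Every HET library lay below every WT library in CMP, GMP and MEP, 7 of 7 in each. The share of all genes that separate genotypes in this way, here or for KO, is not given. In LSK, 8 of 9 HET libraries lay below every WT library, and 1, library 5 of title series 20, lay inside the WT range at 67.4 CPM.

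In the fit across all genes, Smarcd2 passed in HET against WT in no population, where 0.00721% of genes passed in LSK and 0% in CMP, GMP and MEP. The log2 fold change in LSK was -0.72 (95% interval -1.12 to -0.32; edgeR adjusted p 0.307). It was -1.24 in CMP (-1.79 to -0.68; adjusted p 0.999), -0.93 in GMP (-2.01 to 0.15; adjusted p 1) and -0.79 in MEP (-1.37 to -0.21; adjusted p 1). Before adjustment the edgeR p was 0.000996 for LSK, 0.000177 for CMP, 0.0878 for GMP and 0.0110 for MEP. DESeq2 called it in none of the 3 populations where it gave an adjusted p, and limma called it in GMP (log2 fold change -0.73, adjusted p 0.00320), where it called 52.6% of all genes. All 4 edgeR intervals hold -1, a ratio of 1 to 2, and the GMP interval also holds 0.

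Tested as a single gene over the libraries, the HET level was below the WT level in each population. An exact two-sided permutation test of log2 CPM gave p = 0.00799 in LSK and p = 0.0167 in CMP, GMP and MEP, the smallest that 7 libraries against 3 allow (adjusted p 0.0333 in each, over 8 tests). The other 4 tests set HET against the WT level lowered by 1 on the log2 scale, and gave exact permutation p = 0.463 for LSK, 0.45 for CMP, 1 for GMP and 0.317 for MEP. Without the libraries numbered 8, HET against WT gave exact permutation p = 0.0238 in CMP and GMP, the smallest that 6 libraries against 3 allow. Against the lowered WT level the exact permutation p was then 0.643 in CMP and 0.571 in GMP. The HET level was therefore not distinguished from a ratio of 1 to 2 in these libraries. The widest interval, in GMP with HET 8 kept, runs from 24.8% to 111% of the WT level. The HET effect did not pass a test of difference between populations, where 0% of genes passed: the log2 difference was 0.39 for GMP minus CMP (95% interval -0.70 to 1.47), 0.46 for MEP minus CMP (-0.62 to 1.54) and -0.08 for GMP minus MEP (-1.16 to 1.01).

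The LSK value rested on that library and on how the title series were treated. Library titles carry a series number and a library number, and within series the HET mean was 62.6% of WT in series 19 (3 HET, 1 WT), 38.0% in series 21 (2 HET, 2 WT), 46.2% in series 22 and 50.2% in series 24 (1 library each). Series 20, with its HET libraries 5 and 4 (34.9 CPM), has no WT library. With series as a term in the fit, Smarcd2 passed in LSK, with a log2 fold change of -1.02 (edgeR adjusted p 0.0150), where 0.0144% of genes passed. Without HET library 5 of series 20 it also passed, at -0.92 (edgeR adjusted p 0.00531), again with 0.0144% of genes. In CMP the HET mean was 51.6% of WT in series M32 (4 HET, 2 WT) and 27.8% in M33 (3 HET, 1 WT), where the HET libraries include the one labelled HET 8. In GMP these shares were 53.2% in M32 and 49.2% in M33, and in MEP 62.1% in M32 and 51.8% in M33.

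**Figure D2:**
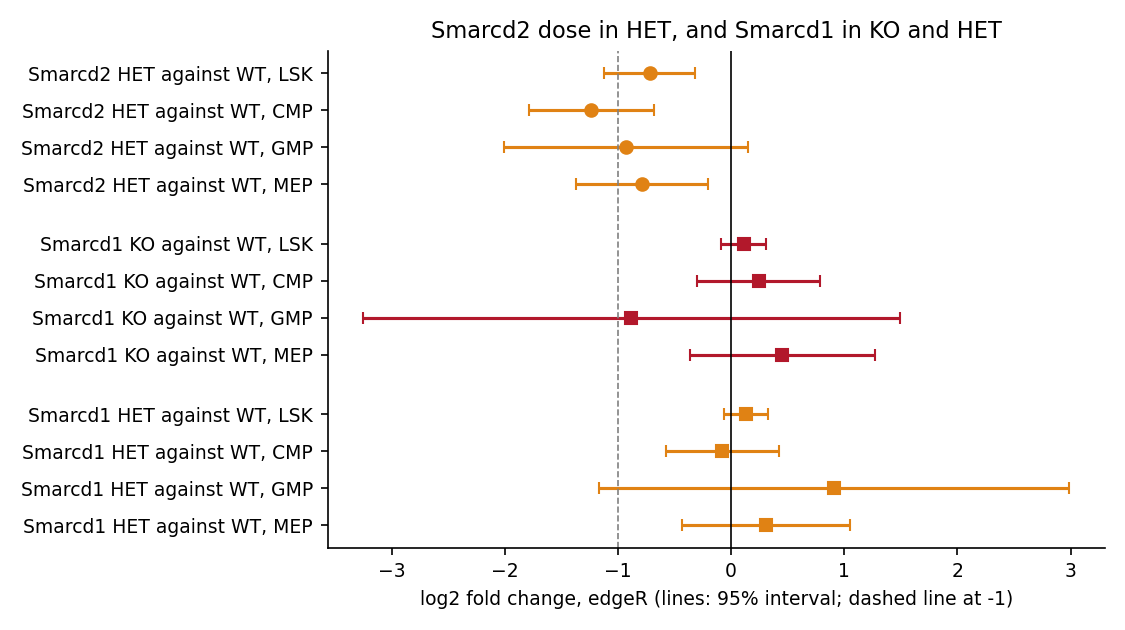
Log2 fold changes from edgeR with 95% intervals for Smarcd2 in HET against WT (circles) and for Smarcd1 in KO and in HET against WT (squares), by population; the solid line is at 0 and the dashed line at -1. Every Smarcd2 interval holds -1, and every Smarcd1 interval holds 0.

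Smarcd1 RNA, the paralog made in many tissues, was measured in all 4 populations and did not pass in any comparison of genotypes with edgeR. In LSK its level was tightly held, from 27.0 to 32.7 CPM in KO with a median of 30.8, from 25.6 to 34.01 in HET with a median of 32.2, and at 26.2, 31.7, 31.0, 27.5 and 22.76 CPM in WT. The 3 groups overlapped, although 3 of 9 KO libraries and 5 of 9 HET libraries lay above every WT library. The log2 fold change was 0.11 in KO against WT (95% interval -0.09 to 0.31; edgeR adjusted p 0.461) and 0.13 in HET against WT (-0.07 to 0.33; adjusted p 0.622). The upper bound corresponds to 124% of the WT level in KO, so an increase in LSK beyond that size lies outside the interval. The 5 LSK markers, all listed and none at 0, summed to 1377 to 1804 CPM in KO, 1203 to 1461 in HET and 1097 to 1316 in WT, and their part in the Smarcd1 value was not tested.

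CMP KO libraries had 20.301, 19.41, 19.202 and 14.9 CPM of Smarcd1, HET libraries 8.15 to 23.3 with a median of 14.6, and WT libraries 13.5, 17.3 and 16.1 CPM. Here 3 of 4 KO libraries lay above all 3 WT libraries and 1 lay among them. The log2 fold change of KO against WT was 0.24 (95% interval -0.30 to 0.79; edgeR adjusted p 0.765), with an upper bound at 173% of WT. The 6 hepatocyte markers, all listed and none at 0, summed to 34.5 to 119.7 CPM in CMP KO, 29.7 to 1671 in HET and 289 to 735 in WT, and their part in the Smarcd1 value was not tested. Within series the KO level was 132% of WT in M32 and 120.2% in M33, with 1 KO library in each. Series M34 holds KO libraries only, 2 each in CMP, GMP and MEP. For these, series and genotype cannot be told apart. In GMP only KO 6, of M32, has WT libraries of its own series.

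In MEP, Smarcd1 stood at 13.2, 15.9, 12.7 and 28.4 CPM in KO, at 9.30 to 22.496 with a median of 16.6 in HET, and at 8.06, 16.6 and 13.8 CPM in WT. Only KO 15 lay above all WT libraries, and that library had a normalization factor of 0.572, against 1.13 for the highest KO library. On unscaled library totals the MEP KO libraries spanned 14.0 to 18.0 CPM. KO against WT gave a log2 fold change of 0.45 (95% interval -0.37 to 1.27; edgeR adjusted p 0.746), and 0.14 without MEP HET 8 and MEP KO 15, a choice made after seeing the data.

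GMP had the lowest and least certain Smarcd1 levels, with 2 to 43 reads per library. KO libraries had 1.58, 5.66 and 0.376 CPM, HET libraries 1.34 to 26.3 with a median of 9.21, and WT libraries 8.88, 3.19 and 2.23 CPM. The library at 26.3 CPM was the one labelled HET 8, and without it the HET range ended at 9.55 CPM. A length index sets the level of genes with long transcripts against that of genes with short ones. It was -1.69 in HET 7, -1.43 in KO 6 and -1.55 in KO 15, and -0.79 to 2.70 in the other GMP libraries. Smarcd1 stood at 1.96, 1.58 and 0.376 CPM in the former and at 1.34 to 26.3 CPM in the latter. Among the latter, HET 9 (index -0.79), WT 5 (-0.37) and WT 12 (-0.26) had 1.34, 3.19 and 2.23 CPM. The rest, at 0.18 to 2.70, had 5.66 to 26.3 CPM. With the length index as a covariate, Smarcd1 kept its sign and passed in no comparison of GMP genotypes. The size of any part of transcript length in the Smarcd1 level was not tested. The log2 fold change was -0.88 in KO against WT (95% interval -3.25 to 1.49; edgeR adjusted p 0.880) and 0.91 in HET against WT (-1.16 to 2.99; adjusted p 1). The HET value was 0.51 without HET 8. With each library left out in turn the KO value ran from -2.19 (without KO 13) to -0.13 (without WT 2) and the HET value from 0.50 (without WT 12) to 1.64 (without WT 2), and none passed. When the log2 of the spike-in share entered the fit, the KO value turned to 1.78 (edgeR adjusted p 0.455). The spike-in share separates KO from the other GMP libraries, so its part cannot be told apart from genotype. Limma with quality weights called the HET value, at 1.64 (adjusted p 0.00117), as it did 25.7% of all genes in that direction and 26.9% in the other, while edgeR and DESeq2 did not.

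**Figure D3:**
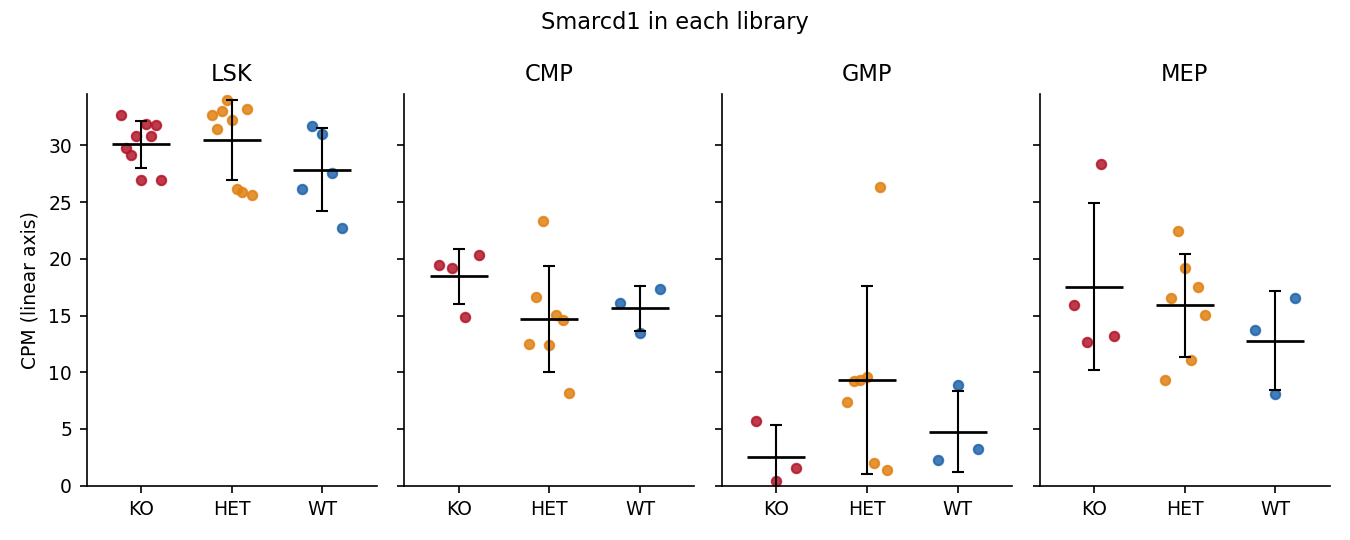
Smarcd1 level of each library in CPM on a linear axis, in KO, HET and WT of the 4 populations; points are libraries, lines are group means and bars are SD. LSK libraries sit between 22.76 and 34.01 CPM whatever the genotype, and the GMP HET library at 26.3 CPM is the one numbered 8.

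Smarcd1 in KO against HET did not pass either. The log2 fold change was -0.02 in LSK (95% interval -0.18 to 0.14), 0.32 in CMP (-0.13 to 0.77), -1.79 in GMP (-3.96 to 0.37; -3.06 without KO 13 and -1.23 without KO 15) and 0.14 in MEP (-0.51 to 0.80). The KO effects on Smarcd1 did not pass a test of difference between populations, with log2 differences of -1.11 for GMP minus CMP, 0.17 for MEP minus CMP and -1.28 for GMP minus MEP, each interval more than 3 log2 units wide. Narrow intervals around no change were thus obtained for Smarcd1 in LSK alone.

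Smarcd3 RNA, from the paralog known from heart and muscle, was barely detected where it was listed. Its row was listed in LSK and GMP, passed the filter on low counts in neither, and was not analysed here in CMP and MEP. LSK libraries had 0 to 4 reads in KO, 0 to 8 in HET and 0 to 2 in WT, and 6 of 9 KO, 8 of 9 HET and 3 of 5 WT libraries had at least 1. Pooled over libraries this was 0.217 CPM on unscaled totals in KO (exact 95% counting interval 0.118 to 0.363), 0.375 in HET (0.257 to 0.530) and 0.144 in WT (0.0392 to 0.368). These intervals overlap and cover counting error only, since amplified reads are not independent molecules. GMP had 1 read in KO, 1 in HET and 2 in WT over all libraries. In each LSK KO library Smarcd2 had more reads than Smarcd3, with 4 to 15 reads against 0 to 4. The closest was 1 library with 3 reads of Smarcd3 and 4 of Smarcd2.

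Set on a common scale of CPM per kilobase of exon, the family sum was lower in KO than in WT in all 4 populations. In LSK Smarcd2 averaged 0.358 ± 0.114 in KO, 9.39 ± 3.92 in HET and 15.6 ± 2.38 in WT, while Smarcd1 averaged 7.47 ± 0.513 in KO, 7.57 ± 0.869 in HET and 6.91 ± 0.909 in WT. Smarcd1 therefore made up 94.8% of the family sum per length in LSK KO, 45.9% in HET and 30.8% in WT. The sum itself was 7.88 ± 0.509 in KO, 17.03 ± 4.40 in HET and 22.52 ± 3.06 in WT, so that KO held 35.0% of the WT sum and HET 75.6%. These sums are descriptions and carry no test.

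The sum held 3 genes in LSK and GMP and, without a row for Smarcd3, 2 genes in CMP and MEP. Outside LSK, Smarcd2 was by far the main member of the family in WT, at 89.1% of the sum per length in CMP, 95.3% in GMP and 90.8% in MEP, against 69.1% in LSK. Accordingly less of the sum was left in KO, namely 13.6% of WT for CMP, 3.16% for GMP and 13.9% for MEP. The GMP value rested on KO 13, whose sum was 1.70 CPM per kilobase, against 0.393 in KO 6 and 0.339 in KO 15, and was 1.43% without it. The length index was 0.18 in KO 13, against -1.43 in KO 6 and -1.55 in KO 15, and its part in these sums was not tested. HET kept 46.7% of the WT sum in CMP, 58.4% in GMP and 64.2% in MEP. Without the libraries numbered 8 it kept 50.3% in CMP and 61.9% in GMP. The share of Smarcd1 in KO was 93.8% in CMP and 91.8% in MEP. In GMP KO it ran from 27.5% to 100% over 3 libraries, where both genes had at most 16 reads.

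**Figure D4:**
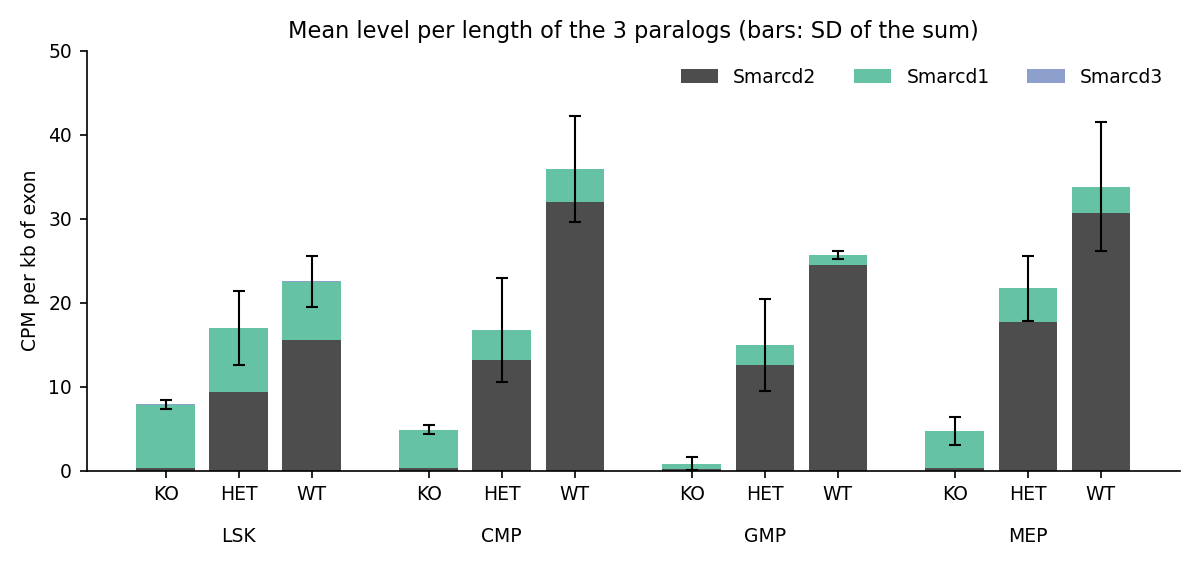
Mean level per length (TMM-scaled CPM per kilobase of exon) of Smarcd2, Smarcd1 and Smarcd3, stacked, in KO, HET and WT of each population; error bars are the SD of the sum over libraries, and Smarcd3 is not part of the sum in CMP and MEP. KO bars consist almost wholly of Smarcd1 in LSK, CMP and MEP, and Smarcd1 bars are of similar height in KO, HET and WT of LSK.

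CPM were scaled within each population, so that orders of CPM between populations also reflect these separate scalings. By mean Smarcd2 CPM the WT populations ran CMP (115 ± 21.23 CPM), MEP (109.9 ± 23.6), GMP (87.8 ± 2.90) and LSK (55.9 ± 8.54). The MEP range overlapped both others, and the highest GMP library (90.6 CPM) lay just below the lowest CMP library (91.2 CPM). In the joint fit, which scaled CMP, GMP and MEP together, none of the 3 differences passed: the log2 fold change was -0.09 for GMP against CMP (95% interval -0.99 to 0.81), 0.02 for MEP against CMP (-0.88 to 0.92) and -0.11 for GMP against MEP (-1.01 to 0.79). In these comparisons 1.03%, 3.1% and 6.95% of all genes passed. All 5 LSK libraries lay below all 9 others, a difference that was not tested.

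By mean CPM on the same separate scales, Smarcd1 had another order in WT, with LSK (27.8 ± 3.66 CPM) above CMP (15.7 ± 1.98), MEP (12.8 ± 4.34) and GMP (4.77 ± 3.59). CMP and MEP overlapped, and GMP overlapped MEP in 1 of 3 libraries. GMP against CMP gave a log2 fold change of -1.57 (95% interval -2.90 to -0.23; edgeR adjusted p 0.350) and GMP against MEP -1.37 (-2.71 to -0.02; adjusted p 0.264), so neither passed over all genes in edgeR. Limma with quality weights called both, at -2.20 (adjusted p 1.06e-05) and -1.98 (adjusted p 0.000225), where it called 57.7% and 50.2% of all genes. MEP against CMP was -0.20 (-1.43 to 1.03).

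Whether Smarcd1 goes with Smarcd2 among libraries of 1 genotype was examined in HET. In LSK the 9 HET libraries gave Pearson r = 0.55 (exact permutation p = 0.116) and Spearman rho = 0.38 (exact permutation p = 0.313), and r = 0.56 without the 2 libraries farthest from the median. In MEP the 7 HET libraries gave r = 0.64 (exact permutation p = 0.109) and rho = 0.71 (exact permutation p = 0.0881), and r = 0.38 without 2. The CMP value was r = 0.41, and the GMP value of -0.32 turned to 0.79 without 2 libraries. Of 11 such relations, which include Smarcd2 against its neighbour Psmc5 and Smarcd2 between populations by title number, none passed (lowest adjusted exact permutation p 0.255 for r and 0.485 for rho).

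The gene next to Smarcd2 also differed between genotypes in LSK. Psmc5, which encodes an ATPase of the proteasome, ends 58 bases from the end of Smarcd2 on the opposite strand (chr11:106256154-106263120). It ran from 70.2 to 90.7 CPM in KO with a median of 83.8, from 137.4 to 177 in HET with a median of 164, and stood at 258, 234, 219.9, 237 and 232 CPM in WT. The 3 genotypes did not overlap, and the share of all genes without such overlap is not given. HET library 5 of series 20, at 177 CPM of Psmc5, sat with the other HET libraries even though its Smarcd2 level lay in the WT range. The log2 fold change in HET against WT was -0.55 ± 0.07 (SE; edgeR adjusted p 0.000109), and Psmc5 was the 1 gene called in that comparison. In CMP it fell in KO against WT (log2 fold change -0.94 ± 0.17; edgeR adjusted p 0.00425), at 117 to 128 CPM in KO against 224 to 251 in WT. In GMP the levels of the genotypes overlapped and Psmc5 did not pass. The Psmc5 transcript is 1394 bases long, one of the short ones in the length index. Its highest GMP levels were 470 CPM in KO 6 (index -1.43) and 414 CPM in HET 7 (-1.69). KO 15 (-1.55) went the other way, at 138 CPM. In MEP Psmc5 did not pass either (log2 fold change of KO against WT -0.21 ± 0.56, edgeR adjusted p 0.934). There, 3 of 4 KO and 6 of 7 HET libraries lay below every WT library. The exceptions were KO 15 at 435 CPM and HET 8 at 652 CPM, the MEP libraries of low normalization factor, against 213 to 277 CPM in WT. Their length indices were -1.85 and -1.58, against -0.28 to 0.76 in the other MEP libraries. The part of transcript length in the Psmc5 level was not tested. Without KO 15 and HET 8, a choice made after seeing the data, Psmc5 fell in MEP KO against WT (log2 fold change -0.82 ± 0.14, edgeR adjusted p 0.0259). In that fit 0.281% of genes passed. Within series MEP KO stood at 58.6% of WT in M32 and 60.5% in M33, with 1 KO library in each. Tcam1, 3699 bases from the other end of Smarcd2, fell in LSK KO (log2 fold change -1.59 ± 0.33; edgeR adjusted p 0.00146), at 0.425 to 2.58 CPM in KO against 1.99 to 3.83 in WT. It did not pass in LSK HET against WT (-0.12; edgeR adjusted p 0.903). Nor did it pass in KO against WT in CMP (-1.20; edgeR adjusted p 0.670) or MEP (-1.83; edgeR adjusted p 0.660). In GMP it did not pass the filter on low counts.

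**Figure D5:**
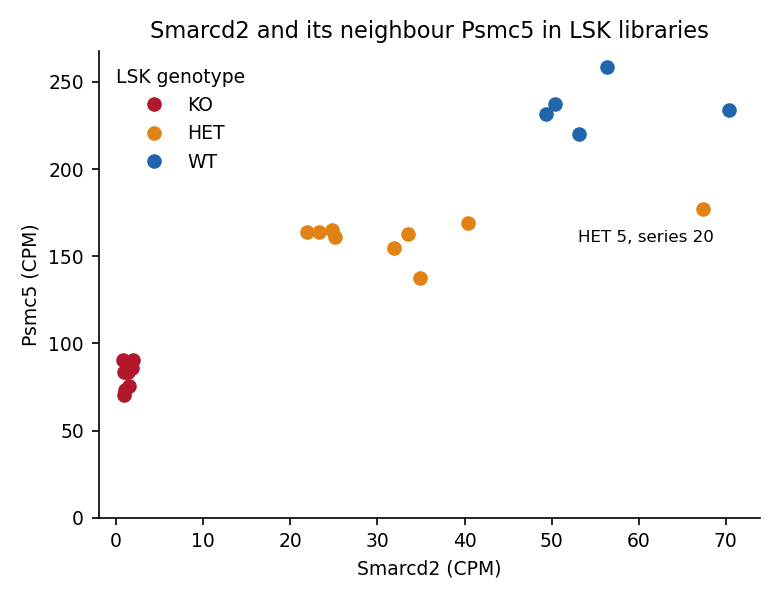
Smarcd2 level (CPM, horizontal) against the level of its neighbour Psmc5 (CPM, vertical) in the 23 LSK libraries, with KO in red, HET in orange and WT in blue. The genotypes form separate bands of Psmc5, and HET library 5 of series 20, at 67.4 CPM of Smarcd2, stays in the HET band at 177 CPM of Psmc5.

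Other subunits of the complex passed in LSK KO in a share near that of all genes. Of 26 BAF genes other than the BAF60 family, 23 could be tested in LSK, and in KO against WT 2 rose and 2 fell, where 9.53% of all genes rose and 9.28% fell. Arid1b, a DNA-binding subunit of the canonical complex, rose (log2 fold change 0.73 ± 0.11, SE; edgeR adjusted p 5.92e-05), as did Bicral, a subunit of the noncanonical complex (0.35 ± 0.11; adjusted p 0.0294). Actl6a, the actin-like subunit BAF53a, fell (-0.25 ± 0.05; adjusted p 0.00220), and the core subunit Smarcb1 fell with an adjusted p just under the threshold (-0.18 ± 0.07; adjusted p 0.0499). The median log2 fold change was 0.11 over the list and 0.01 over all genes tested. The number that rose ranged from 1 to 7 over the alternative settings. Against HET, Arid1b and Bicral rose and Actl6a fell in LSK KO, where 5.93% of all genes rose and 5.17% fell. At an unadjusted edgeR p under 0.05 there were 11 in LSK KO against WT (47.8%, against 32.1% of all genes). In KO against HET there were 5 (21.7%, against 25.9% of all genes).

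In CMP, GMP and MEP none of the 23, 23 and 24 BAF genes tested passed in KO against WT with edgeR, DESeq2 or limma. In GMP 1 rose when the log2 of the spike-in share entered the edgeR fit. At an unadjusted edgeR p under 0.05 there were 1 in CMP (4.35%, against 12.9% of all genes), 0 in GMP (6.45% of all genes) and 1 in MEP (4.17%, against 6.92% of all genes). List medians were 0.15 in CMP, 0.15 in GMP and 0.01 in MEP, beside -0.01, 0.00 and 0.06 over all genes. In HET against WT the list had no call by edgeR in any population, with 5 genes at an unadjusted p under 0.05 in LSK (21.7%, against 11% of all genes) and 1 in CMP (4.35%, against 2.54%). There were 0 in GMP and MEP, where 0.498% and 0.762% of all genes had such a p. Limma called 10 of the list higher and 5 lower in GMP HET, where it called 25.7% of all genes higher and 26.9% lower.

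The genes most like Smarcd2 over the 12 group means, as Pearson r of log2 CPM among 9415 genes kept in all populations, were Oxct1 (0.94), Cyb5r1 (0.87), Sept10 (0.86), Chsy1 (0.84) and Acsl1 (0.80). Oxct1 encodes a mitochondrial enzyme of ketone body use and Acsl1 one that activates long-chain fatty acids. By deviations from the group means over 64 libraries, the leading genes were Vps26b (0.75), Vav1 (0.75), Mtmr14 (0.75), Kctd20 (0.74) and Stom (0.74). Smarcd1 was most like Zfp553, Tbc1d14, Dph6, Slc25a15 and Mterf1a over group means (0.98 to 0.99), and most like Myo9b (0.91), Lrrk1, Ift172, Taok2 and Polrmt by deviations. Points share libraries, depth and scaling, and no test was made on these likenesses.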

How the data were processed

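The authors deposited raw counts, whole reads per Ensembl gene from featureCounts on the mm10 (GRCm38) build, per the submitters' processing notes. Aligner and annotation release: not given in the sources used here. Per the labels' protocols, libraries were made by Smart-seq2, which marks neither strand nor molecule. Gates of CMP, GMP and MEP are written with CD177 in the labels, while the listed antibody is against CD117 (c-Kit). Symbols, exon lengths and coding sequences came from GENCODE M21 on GRCm38. Spike-in rows entered neither totals nor tests.

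The 3 genotypes of a population shared 1 quasi-likelihood fit in edgeR 4.0.16 (R 4.3.3; TMM, robust, filterByExpr with minimum count 10 and minimum total 15), with Benjamini-Hochberg adjustment over all genes kept and a threshold of 0.05. A joint fit over the 11902 genes listed in CMP, GMP and MEP tested WT populations and differences of effects. CPM are TMM-scaled. The SE is the absolute log2 fold change over the square root of F. Exact permutation tests used log2 CPM with a prior count of 0.5. Scripts were tested on simulated data. Alternatives were RLE scaling, no or a stricter filter, DESeq2 1.42.0, limma 3.58.1 with quality weights, 2-group fits, covariates (series, sex, spike-in share, length index), a replicate block and each library left out. Fits without libraries that stood apart were added after seeing the data. Genes named are the members, both neighbours, up to 4 BAF genes that passed per population, and the 5 most correlated genes per member and measure. Members and lists were chosen with earlier results of these data known. The closest replicates differed by a chi-square of 2.80 per degree of freedom, above sampling noise.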

Additional observations from a re-analysis of the deposited data

Results flagged for a closer look

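In LSK HET, Smarcd2 in HET library 5 of title series 20 stood at 67.4 CPM, far from the next highest HET library at 40.5 CPM and inside the WT range. It was the deepest library, with 24069833 reads in genes, and its Psmc5 level of 177 CPM lay in the HET range. In GMP HET, the library numbered 8 had Smarcd1 at 26.3 CPM, against 9.55 CPM in the next highest, from 9 reads. In the same library Smarcd2 made up 25.6% of the family sum per length, against 86.3% in the next lowest, from 3 reads. A gap at the limit for a flag arises by chance in about 1 in 20 groups. Among 24 groups of values examined 3 were flagged, and this family holds several measures of the same libraries. The part of depth or of the sort in these values was not tested.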

How the results depend on the processing

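Smarcd2 in KO against WT and against HET passed in all 4 populations under every alternative run, and Smarcd1 passed in no comparison of KO under any. Calls were gained as follows. Smarcd2 in LSK HET against WT passed with series as a term (-1.02) and without HET library 5 of series 20 (-0.92; range over libraries left out -0.92 to -0.62), and limma called it in GMP (-0.73). DESeq2 gave no adjusted p for either gene in LSK HET against WT. Limma also called Smarcd1 in GMP HET against WT (1.64), its HET effect in GMP minus CMP (1.76) and GMP minus MEP (1.48), and WT GMP against CMP (-2.20) and MEP (-1.98); it called 45.1% and 28.5% of all genes in these tests of the HET effect. Fewer than 50 Smarcd1 reads per GMP library limit all of these.

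None of the sign changes concerned a call, and the cause of each was not tested. When the log2 of the spike-in share entered the fit, Smarcd1 in GMP KO turned to 1.78 against WT and 1.42 against HET. Smarcd1 in MEP KO against HET turned to -0.051 with limma, -0.13 with series as a term and -0.13 without the MEP libraries of low normalization factor. The KO effect on Smarcd1 in MEP minus CMP turned to -0.050 with limma and -0.12 without libraries that stood apart. The HET effect on Smarcd2 in GMP minus MEP turned to 0.12 and 0.049 under the same settings, and WT MEP against CMP to -0.048 with limma. With each library left out in turn, Smarcd1 ranged from -0.23 to 0.037 in CMP HET against WT, from -0.05 to 0.01 in LSK KO against HET (0.0067 without HET library 4 of series 20, 0.0017 without KO library 5 of series 24), and from -0.16 to 0.24 in MEP KO against HET. Its KO effect in MEP minus CMP ranged from -0.12 to 0.37 and its WT level in MEP against CMP from -0.43 to 0.050. Smarcd2 ranged from -0.25 to 0.092 for the HET effect in GMP minus MEP, from -1.01 to 0.078 for the KO effect in GMP minus CMP and from -0.11 to 0.48 in MEP minus CMP. Its WT levels ranged from -0.23 to 0.024 in GMP against CMP, from -0.28 to 0.024 in GMP against MEP and from -0.12 to 0.19 in MEP against CMP.

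CMP, GMP and MEP share title numbers. Deviations of same-numbered libraries correlated above 0.1 in 12 of 14 pairs of CMP with MEP, 9 of 13 of CMP with GMP and 5 of 13 of GMP with MEP (range over all 40 pairs -0.45 to 0.69), and 11, 9 and 3 pairs correlated best with their own number. The main fits did not pair the libraries by number. Pairs below 0.1 do not show that same-numbered libraries come from separate fetuses. The values of CMP with MEP and of CMP with GMP are a hint, from the data and not the labels, that some same-numbered libraries deviate together. Tests in CMP, GMP and MEP may therefore not be independent of one another. With a replicate block in the joint fit the Smarcd2 KO effect was -0.40 in GMP minus CMP and that for Smarcd1 WT GMP against WT CMP was -1.61, and no call was gained or lost.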
